A study of Caenorhabditis elegans with 24 samples.

Results

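Small RNAs antisense to mRNAs were compared between wild-type Caenorhabditis elegans (strain N2, WT) kept at 23 °C and the same lineage in its first generations at 15 °C. The comparison rests on 8 of the 24 libraries of the experiment, which are 23C-G2 to 23C-G6 (n = 5) and 15C-G1 to 15C-G3 (n = 3). After the transcript with the highest mean was kept for each gene, 19839 of 20167 genes were tested, those whose mean in the 24 libraries reached 1 RPKM. RPKM scales reads by transcript length in kilobases and by 1e6 reads of the library. In the experiment, WT and the mutant hrde-1(tm1200) went through 12 generations, first 3 at 15 °C, then 6 at 23 °C (23C-G1 to G6), then 3 at 15 °C again (p15C-G1 to G3). Each generation of each genotype gave 1 small RNA library. The animals were whole, young and gravid adults, synchronised by egg preparation and fed the OP50 strain of Escherichia coli. Harvest followed the release of L1 larvae by 114 to 120 h in generations at 15 °C and by 50 to 55 h in those at 23 °C. The library of 23C-G1 was left out of the comparison, since the shift to 23 °C fell within that generation, and its values are given separately. WT carried no transgene or mutation, and all groups compared shared the strain, food and stage. Each group was a run of successive generations from 1 lineage, and the p-values therefore measure only the spread between generations. Temperature, age at harvest and the order of generations changed together, and their parts in any difference cannot be told apart.

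Most endogenous siRNAs of C. elegans are made by RNA-dependent RNA polymerases on target mRNAs, and so run antisense to the gene they come from. Worm-specific Argonaute proteins bind these secondary siRNAs, mostly in the germline, and silence targets in the cytoplasm or, through the nuclear Argonaute HRDE-1, at the chromatin of the gene. The amount of siRNA over a gene is therefore a readout of how strongly it is used as a template and target of these pathways. It is not a measure of the gene's mRNA.

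The 8 libraries were shallow. Low RPKM values fell on whole multiples of a smallest step (89.4% of them within 0.1 of a step), and if 1 step is 1 read, the libraries held from 299600 (23C-G4) to 553000 reads (23C-G6), with 369800 to 502900 at 15 °C. For a transcript of 1 kb, this makes 1 read equal to 1.81 to 3.34 RPKM. No value was 0, and 39.9 to 46.6% of the transcripts in these libraries sat at the value of 1 read, here called the read floor. Reads below are inferred in this way, and 8199 genes had a mean of at least 5 of them over the 24 libraries. The 24 include the libraries compared, so a gene near the floor at either temperature can pass on its reads at the other. Over the 8199 genes, Spearman's rho was 0.936 to 0.950 between libraries at 15 °C, 0.861 to 0.943 between libraries at 23 °C and 0.786 to 0.873 between the temperatures. The library of 23C-G1 had rho of 0.880 to 0.906 with those at 15 °C and 0.921 to 0.942 with the later ones at 23 °C. These values are across genes, which are not independent replicates.

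At 23 °C, siRNAs of 782 genes were higher (3.94% of the genes tested) and those of 524 genes were lower (2.64%), at a fold of at least 2 and an adjusted p of at most 0.1 (limma on log2(RPKM + 1), two-sided, Benjamini-Hochberg adjustment over all genes tested). Fold changes are given on this log2(RPKM + 1) scale with their SE, which understates changes of genes with few siRNAs, and RPKM with their SD. The higher genes went from a median level of 9.75 RPKM to 33.0 RPKM, and the lower genes from 35.1 to 9.22 RPKM. The size of the change was alike in both directions, with a median absolute log2 fold change of 1.44 and 1.45. At least 4-fold changes were found at 141 higher and 105 lower genes, and at least 8-fold changes at 25 and 29. In 631 of the 782 higher genes and 464 of the 524 lower genes, no 23C library overlapped with any 15C library. Over all genes tested, called or not, 6.34% lay apart in the higher and 5.36% in the lower direction. Among genes of at least 5 reads, 604 were higher (7.37%) and 403 lower (4.92%). The median log2 fold change was 0.10 over all genes tested and 0.00 over those of at least 5 reads. In 58 of the higher genes all 15C libraries sat at the read floor, as did all 23C libraries in 27 of the lower genes, and their fold changes depend on that floor. With a pseudocount of 10 RPKM in place of 1, the counts dropped to 358 higher and 265 lower.

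**Figure D1:**
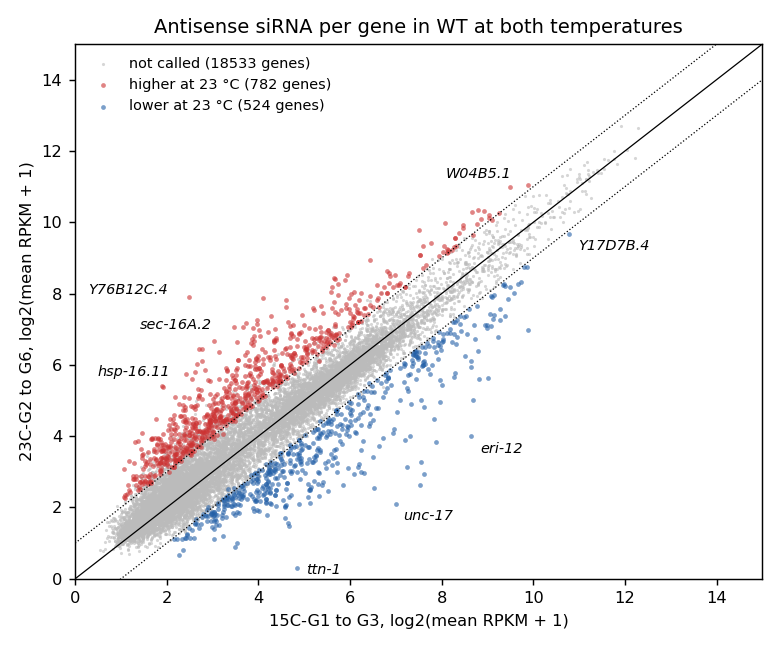
Mean siRNA level of each gene tested in WT, as log2(RPKM + 1), in 15C-G1 to G3 (x axis) and 23C-G2 to G6 (y axis), with genes called higher in red and lower in blue. The dotted lines mark 2-fold changes. Y76B12C.4, at 4.60 RPKM at 15 °C and 236 RPKM at 23 °C, lies farthest above the diagonal, and eri-12, unc-17 and ttn-1 lie far below it.

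Genes of many levels took part, from those close to the floor to the strongest siRNA targets. Of the 11483 genes with a mean of 1 to 10 RPKM over the 8 libraries, 1.50% were higher and 1.37% lower. Of the 3184 genes at 10 to 30 RPKM, 8.29% were higher and 5.09% lower. Of the 436 genes at 300 RPKM or more, 8.26% were higher and 4.82% lower.

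The largest gain was at Y76B12C.4 (IV, 1970681 to 1972371, minus strand of WBcel235). Its siRNA was at 3.93, 7.13 and 2.74 RPKM in 15C-G1 to G3 and at 51.7, 181, 343, 294 and 311 RPKM in 23C-G2 to G6 (log2 fold change 5.22 ± 0.67, adjusted p = 1.6e-05 in limma). The 23C libraries were all above the 15C libraries, and 23C-G2 was the lowest of them. In 23C-G1 the gene stood at 12.9 RPKM, and after the return to 15 °C it went through 117, 39.1 and 12.3 RPKM.

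F56D2.3 (III, 5584947 to 5587110, plus strand) had 9.24, 1.80 and 5.52 RPKM at 15 °C and 84.0, 73.3, 95.3, 91.5 and 84.0 RPKM at 23 °C (3.92 ± 0.35, adjusted p = 2.1e-07). Its 5 values at 23 °C lay close together, and 23C-G1 was already at 49.1 RPKM. Y53F4B.11 (II, 15010748 to 15013408, plus strand) had 23.4, 14.2 and 10.9 RPKM and then 162, 197, 301, 246 and 263 RPKM (3.81 ± 0.37). Y48A6B.9 (III, 11033172 to 11036088, plus strand) had 4.79, 21.7 and 8.34 RPKM and then 132, 147, 139, 129.9 and 115 RPKM (3.64 ± 0.28). In both genes the groups stood far apart, with 23C-G1 between them at 67.5 and 82.3 RPKM.

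egl-21, sec-16A.2 and col-162 were also among the 12 largest gains. egl-21 encodes a carboxypeptidase E that trims neuropeptide precursors (IV, 10478442 to 10481844, minus strand). Its siRNA was at 5.89, 8.01 and 3.69 RPKM at 15 °C and 54.0, 81.4, 67.3, 98.6 and 125 RPKM at 23 °C (3.64 ± 0.32, adjusted p = 1.8e-07). sec-16A.2, for a scaffold of the sites where cargo leaves the endoplasmic reticulum (X, 8287249 to 8294519, plus strand), had 7.91, 11.3 and 10.8 RPKM and then 155, 126, 110.0, 132 and 135 RPKM (3.60 ± 0.29, adjusted p = 6.6e-08). Unlike Y76B12C.4, sec-16A.2 stood in 23C-G1, at 121 RPKM, within the range of the later generations. col-162, for a cuticle collagen (V, 13441961 to 13443419, plus strand), had 2.19, 5.97 and 9.17 RPKM and then 46.1, 51.0, 70.0, 90.1 and 84.2 RPKM (3.46 ± 0.34), and was at 19.4 RPKM in 23C-G1. After the return to 15 °C, egl-21 was at 23.3, 22.2 and 7.36 RPKM, below all of 23C-G2 to G6.

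The remaining 5 of these 12 genes are known by sequence names alone. T05C3.6 (V, 5490445 to 5493646, plus strand) went from 4.36 ± 3.73 to 53.0 ± 9.25 RPKM (3.56 ± 0.41), and F13H8.8 (II, 6265609 to 6268083, minus strand) from 7.22 ± 1.25 to 100.3 ± 35.0 RPKM (3.55 ± 0.38). F48E3.9 (X, 7481056 to 7485213, plus strand) went from 5.29 ± 4.23 to 64.0 ± 13.5 RPKM (3.54 ± 0.49). ZC190.8 (V, 8686952 to 8687807, minus strand) went from 12.3 ± 5.90 to 143 ± 45.2 RPKM (3.47 ± 0.33), and T28A8.2 (III, 13494046 to 13495671, minus strand) from 2.75 ± 0.912 to 40.6 ± 11.1 RPKM (3.46 ± 0.51). As the choice of the 12 required, the groups did not overlap in any of the 5. At Y76B12C.4, F56D2.3, T05C3.6, col-162 and T28A8.2, 1 or 2 of the 15C libraries sat at the read floor. With a pseudocount of 10 RPKM, T05C3.6 (2.15), F48E3.9 (2.29), col-162 (2.30) and T28A8.2 (1.96) had smaller changes, all still called.

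**Figure D2:**
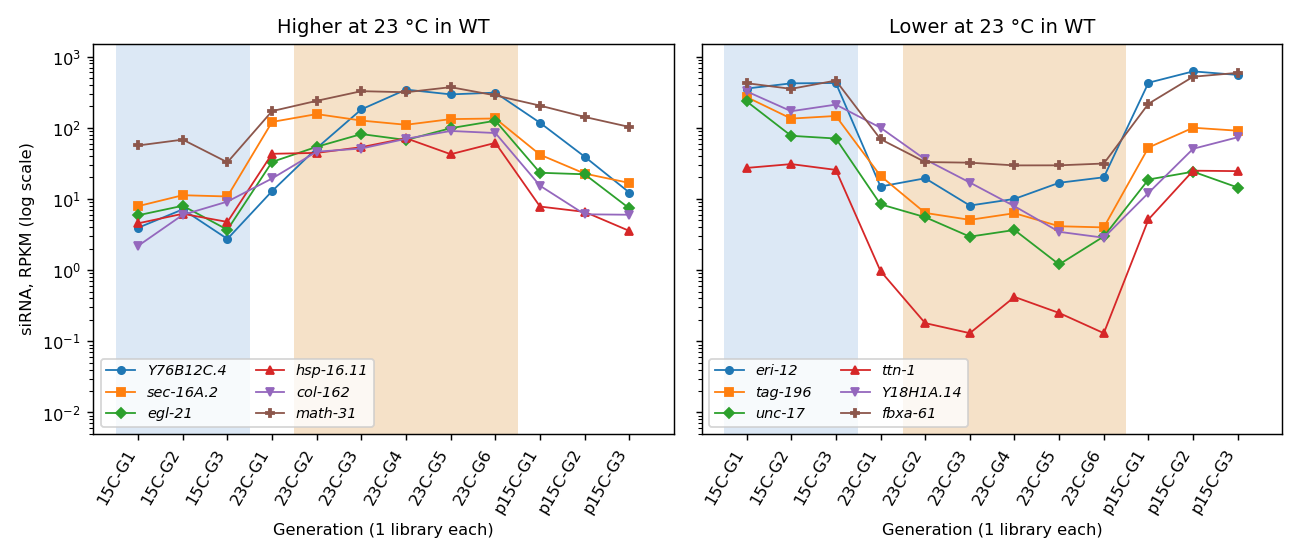
siRNA in RPKM (log scale) over the 12 WT generations, 1 library each, for 6 genes called higher (left) and 6 called lower (right) at 23 °C. Shading marks the libraries compared, blue for 15C-G1 to G3 and orange for 23C-G2 to G6. Y76B12C.4 climbs from 12.9 RPKM in 23C-G1 to 343 RPKM in 23C-G4, while sec-16A.2 is at 121 RPKM already in 23C-G1, and eri-12 drops to 14.9 RPKM in 23C-G1.

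Losses of siRNA reached the same sizes. tag-196, for a cathepsin F-like cysteine protease (V, 8594914 to 8597469, plus strand), carried siRNA at 270.1, 134 and 146 RPKM in 15C-G1 to G3 and 6.36, 5.08, 6.30, 4.13 and 3.98 RPKM in 23C-G2 to G6 (−4.85 ± 0.33, adjusted p = 5.4e-09 in limma). unc-17 encodes the transporter that loads acetylcholine into synaptic vesicles and shares its locus and first exon with cha-1, the choline acetyltransferase gene (IV, 3618259 to 3624699, minus strand). Its siRNA was at 235, 77.0 and 70.5 RPKM and then 5.54, 2.95, 3.66, 1.20 and 2.97 RPKM (−4.77 ± 0.47, adjusted p = 7.3e-07). The 3 values at 15 °C were unequal, with 15C-G1 about 3 times as high as the others, and yet the lowest of them stood far above every 23C library.

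eri-12, a gene of the class named for enhanced RNAi when mutated (IV, 12156838 to 12164281, plus strand), was among the strongest of these targets at 15 °C. It had 355, 420.2 and 425 RPKM at 15 °C and 19.5, 8.07, 10.0, 16.9 and 20.1 RPKM at 23 °C (−4.73 ± 0.26, adjusted p = 3.3e-10). It was down to 14.9 RPKM in 23C-G1, and stood at 429, 619 and 552 RPKM in p15C-G1 to G3, above all 3 of its first levels. nas-28, for an astacin metalloprotease (III, 6180962 to 6183218, minus strand), had 199.7, 183 and 204 RPKM and then 6.78, 7.22, 4.47, 10.2 and 4.84 RPKM (−4.72 ± 0.39), with 48.6 RPKM in 23C-G1. ttn-1, for a titin-like giant protein of muscle (V, 6120909 to 6202632, minus strand), had 27.2, 30.8 and 25.6 RPKM and then 0.180, 0.130, 0.420, 0.250 and 0.130 RPKM (−4.56 ± 0.29, adjusted p = 3.6e-09). Because the transcript is very long, these levels stand for means of 551 and 3.81 reads. With a pseudocount of 10 RPKM the change of ttn-1 was −1.89, still called.

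In some genes siRNA went down over several generations at 23 °C. Y18H1A.14 (I, 667540 to 674413, minus strand) had 324, 171 and 211 RPKM at 15 °C, 100.1 RPKM in 23C-G1 and 35.9, 17.0, 7.89, 3.45 and 2.85 RPKM in 23C-G2 to G6 (−4.51 ± 0.68). In RPKM each generation at 23 °C was lower than the one before. The mean of 23C-G2 to G6 stood for 6.61 reads. The last values rest on very few reads, and their steps cannot be told from differences in library depth. M04B2.6 (IV, 11509731 to 11510764, minus strand) had 288, 167 and 286 RPKM at 15 °C, 157 RPKM in 23C-G1 and 64.2, 58.6, 12.1, 7.93 and 6.55 RPKM after it (−3.57 ± 0.60). The last 3 values, of 23C-G4 to G6, sat at the read floor. The fall among them follows the depth of these libraries (299600, 457300 and 553000 reads) and is no further loss. lim-7, for a LIM homeodomain transcription factor (I, 5716574 to 5725809, plus strand), had 87.8, 65.7 and 113 RPKM at 15 °C, 33.9 RPKM in 23C-G1 and 26.1, 12.9, 2.46, 3.45 and 3.99 RPKM after it (−3.49 ± 0.51), with its last 3 values at 23 °C below the first 2.

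The remaining 4 of the 12 largest losses had reached a low level by 23C-G2. F19C6.2 (X, 10000935 to 10005361, plus strand) went from 187 ± 56.5 to 8.60 ± 4.36 RPKM (−4.36 ± 0.41). fkb-5, for a prolyl isomerase of the FK506-binding family (I, 3898045 to 3899802, minus strand), went from 149.6 ± 31.4 to 7.77 ± 3.36 RPKM (−4.21 ± 0.38). K01A6.6 (IV, 11735325 to 11742308, plus strand) went from 91.0 ± 27.8 to 4.84 ± 2.08 RPKM (−4.02 ± 0.38), and the F-box gene fbxa-61 (III, 1239048 to 1242799, plus strand) from 411 ± 55.1 to 31.2 ± 1.53 RPKM (−3.67 ± 0.36). Here too the lack of overlap was a condition of the choice. fbxa-61 was at 217, 521 and 590.2 RPKM in p15C-G1 to G3. All 24 of these leading genes kept their calls with each of the 8 libraries left out in turn and under the other settings tried.

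Heat shock genes were examined first among the groups. The hsp-16 genes encode small heat shock proteins that are switched on by heat and bind unfolding proteins. Of the 6 tested, 4 had more siRNA at 23 °C and 0 had less, with a median log2 fold change of 2.31, against 0.10 over all genes. hsp-16.11 (V, 9090077 to 9090604, plus strand) had 4.54, 6.18 and 4.75 RPKM at 15 °C and 44.3, 53.3, 71.2, 42.5 and 61.3 RPKM at 23 °C (3.16 ± 0.29, adjusted p = 2.8e-07). hsp-16.1 (V, 9087293 to 9087782, minus strand) had 3.93, 10.7 and 12.3 RPKM and then 38.3, 51.5, 74.8, 41.1 and 70.9 RPKM (2.57 ± 0.34). hsp-16.48 (V, 9088131 to 9088617, plus strand), a temperature control of the study, had 6.91, 15.7 and 9.62 RPKM and then 25.4, 48.9, 128, 25.3 and 118 RPKM (2.31 ± 0.47). In each gene the lowest 23C library was above the highest 15C library. In 23C-G1 these genes stood at 43.0, 51.0 and 44.1 RPKM. hsp-16.49 had the values of hsp-16.48 in every library, and they are a single measurement, so that 3 of 5 distinct measurements were higher. hsp-16.1 and hsp-16.11 may share reads as well, which was not tested. Their transcripts are short, and these levels stand for means of 1.00 to 2.00 reads at 15 °C and of 9.81 to 12.4 reads at 23 °C. hsp-16.2 (0.67) and hsp-16.41 (0.75) did not pass the test. No further gene of the wider list of 27 heat shock and chaperone genes did, and its median was 0.12. fat-7, for a fatty acid desaturase and the study's second temperature marker, had 2.68, 2.43 and 1.87 RPKM at 15 °C and 2.27, 2.42, 3.00, 1.97 and 1.63 RPKM at 23 °C (−0.04 ± 0.26), close to the read floor throughout.

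NHGs (nuclear RNAi-repressed, heat-inducible) are genes whose mRNA heat raises in the hrde-1 mutant. The study chose them on mRNA of this experiment, so that they are not independent evidence of a direction. Of the 38 high-stringent NHGs tested, 9 had more siRNA at 23 °C in WT (23.7%, against 3.94% of all genes) and 1 had less (2.63%, against 2.64%), with a median of 0.52. Their median level was 452 RPKM over the 8 libraries. Among all genes at 300 RPKM or more, 8.26% were higher and 4.82% lower. The gains were mostly small. glit-1, for a gliotactin homolog at cell junctions (X, 4712279 to 4715080, plus strand), had 98.2, 117 and 119.6 RPKM at 15 °C and 416, 385, 373, 414 and 380.3 RPKM at 23 °C (1.81 ± 0.32, adjusted p = 0.00062). C44B12.6 (IV, 1128841 to 1136758, minus strand) went from 102 ± 14.0 to 259 ± 40.4 RPKM (1.33 ± 0.24), and ZK262.9 (V, 18439769 to 18441625, plus strand) from 262 ± 42.2 to 641 ± 112 RPKM (1.28 ± 0.27). The loss was at Y68A4A.13 (V, 17207208 to 17208145, minus strand), with 69.8, 103 and 48.6 RPKM and then 29.6, 39.4, 19.5, 19.2 and 10.6 RPKM (−1.66 ± 0.39). This gene averaged under 5 reads, and of the 32 high-stringent NHGs with at least 5 reads 9 were higher and 0 lower.

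Cumulative NHGs are those whose mRNA builds up over generations in the mutant. They were strong siRNA targets already at the lower temperature. In WT 3 of the 6 rose (50.0%, against 8.26% of all genes at 300 RPKM or more) and 0 fell, with a median of 1.05. C18D4.6 (V, 17535586 to 17538375, minus strand) had 114, 119 and 109.9 RPKM at 15 °C and 363, 333, 452, 464 and 301 RPKM at 23 °C (1.71 ± 0.23, adjusted p = 2.8e-05). The X-linked F41G4.7 (X, 16834896 to 16836404, minus strand) went from 392, 468 and 439.8 RPKM to 1168, 985, 932, 959.7 and 855 RPKM (1.17 ± 0.30), and F40D4.13 (V, 17155874 to 17157254, minus strand) had 589, 486 and 489.6 RPKM and then 1222, 1125, 1177, 1167 and 897 RPKM (1.10 ± 0.20). ZC15.3 (V, 20303588 to 20304908, plus strand) came to 1.00 ± 0.22 and stayed just under the 2-fold minimum. F58H7.5 (0.54) and ZC15.10 (0.52) did not pass either, though their 5 libraries at 23 °C were all above the 3 at 15 °C. Without 15C-G2, 23C-G4, 23C-G5 or 23C-G6, or with the read floor taken off, ZC15.3 was called at 1.00 to 1.08.

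Genes of the small RNA pathways themselves had few calls, as did all genes (3.94% higher and 2.64% lower). Argonaute genes, which encode the proteins that carry small RNAs, had a median of −0.11, with 0 of 23 higher and 1 lower (4.35%). The gene that fell, named here after its value was seen, was sago-1, for an Argonaute of secondary siRNAs (V, 6303771 to 6308337, plus strand). It had 9.30, 10.8 and 10.4 RPKM at 15 °C and 0.850, 0.900, 1.12, 0.730 and 0.600 RPKM at 23 °C (−2.61 ± 0.22), and 14.9, 19.2 and 13.0 RPKM in p15C-G1 to G3. All 5 of the sago-1 values at 23 °C sat at the read floor, and the fold change and its SE depend on that floor. With a pseudocount of 10 RPKM sago-1 was not called. hrde-1 had 278, 301 and 321 RPKM and then 264, 308, 269, 249.7 and 298 RPKM, with overlapping groups (−0.11 ± 0.10, adjusted p = 0.68). Of 29 genes for RNA-dependent RNA polymerases, mutator proteins, Dicer and its partners and RNA import, 0 were higher and 1 was lower (3.45%, median −0.07). This was sid-2, which the gut needs to take up double-stranded RNA, with 11.6, 7.90 and 6.07 RPKM and then 2.46, 2.62, 6.50, 4.26 and 1.76 RPKM (−1.13 ± 0.33). The groups overlapped by 1 library, 3 of the 5 libraries at 23 °C sat at the read floor, and the call was lost without 15C-G1 (−0.91) or 23C-G6 (−0.97), and with that pseudocount (−0.45).

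ERGO-1 class loci, templates of the primary siRNAs that the Argonaute ERGO-1 binds in oocytes and embryos, had high levels. Of 19 tested, 2 were higher (10.5%, against 3.94% of all genes) and 1 lower (5.26%, against 2.64%), with a median of 0.17. Among genes at 300 RPKM or more the shares were 8.26 and 4.82%, near those of these loci. The median level of the 19 was 645 RPKM over the 8 libraries, against 6.72 RPKM over all genes. W04B5.1 (III, 2428204 to 2429430, plus strand) had 970.4, 996 and 875 RPKM at 15 °C and 2543, 2024, 2138, 2178 and 1687 RPKM at 23 °C (1.15 ± 0.16, adjusted p = 3.8e-05). F55C9.5 (V, 19290574 to 19293125, minus strand) had 279, 297 and 425 RPKM and then 666, 500.3, 841, 518 and 1641 RPKM (1.19 ± 0.32), and without 23C-G6, its highest library, the change was 0.91 and not called. Y17D7B.4 (V, 18776238 to 18776687, minus strand) moved the opposite way, with 1805, 1775 and 1699 RPKM and then 798, 819, 899, 817 and 767 RPKM (−1.10 ± 0.13, adjusted p = 6.4e-06). The groups of Y17D7B.4 were tight and did not overlap.

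Major sperm protein genes, which encode the motility protein of the amoeboid sperm, had a median of 0.72. All 30 lay above 0, as did 13065 of the 19839 genes tested, but only 3 passed the test as higher (10.0%, against 3.94% of all genes) and 0 were lower. msp-10 had 5.16, 11.2 and 15.4 RPKM at 15 °C and 77.2, 29.1, 19.4, 32.9 and 14.2 RPKM at 23 °C (1.49 ± 0.49), with overlapping groups, msp-3 came to 1.14 ± 0.37 and msp-32 to 1.03 ± 0.28. Of 62 other spermatogenesis genes 3 were higher (4.84%) and 0 lower (median 0.47), a share near that of all genes. spe-6, for a casein kinase 1-like protein of spermatocytes (III, 11505488 to 11508930, plus strand), had 6.71, 4.56 and 1.75 RPKM and then 23.5, 11.4, 16.9, 23.98 and 24.4 RPKM (2.05 ± 0.39, adjusted p = 0.0011). ssq-1 (1.59 ± 0.54) and spe-10 (1.34 ± 0.42), for a palmitoyltransferase, rose too. These levels stand for a few reads per library, and the counts hung on single libraries. Of the major sperm protein genes 0 were higher without 15C-G1, 15C-G2 or 23C-G2, 1 without 23C-G4 or 23C-G5 and 9 without 23C-G6. Of the spermatogenesis genes 1 was higher without 15C-G1, 15C-G2 or 23C-G2 and 8 without 23C-G6.

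Of 30 oocyte and early embryo genes (median −0.18) and 30 genes of the mitotic and meiotic germline (median −0.13), 0 passed in either direction. Over all genes 3.94% were higher and 2.64% lower, and lists this small can hold 0 calls at such shares. Changes in the oocyte and early embryo list ran from −0.78 to 0.32, and those in the germline list from −0.77 to 0.39. Of 16 germ granule genes 1 was higher (6.25%, against 3.94% of all genes). It was meg-4, which is needed to assemble P granules in the embryo (X, 1682954 to 1686419, plus strand), with 16.4, 20.7 and 17.1 RPKM at 15 °C and 66.7, 52.4, 67.4, 112 and 66.3 RPKM at 23 °C (1.92 ± 0.22, adjusted p = 5.3e-06). The groups of meg-4 did not overlap, and 23C-G1 was at 43.3 RPKM.

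F-box genes, a large family of substrate adaptors of ubiquitin ligases, had more losses than gains. Of 348 tested, 11 were higher (3.16%, against 3.94% of all genes) and 42 lower (12.1%, against 2.64%). Of the 138 with at least 5 reads 6 were higher and 35 lower (25.4%, against 4.92% of all genes of this level), with a median of −0.33. After fbxa-61, the largest losses were at fbxa-179 (−3.13 ± 0.43), fbxb-107 (−2.78 ± 0.31) and fbxa-60 (−2.65 ± 0.33). fbxa-60 (III, 944733 to 946300, minus strand) had 265, 256 and 248 RPKM at 15 °C and 58.4, 23.1, 40.4, 59.1 and 31.1 RPKM at 23 °C. fbxa-179 had 63.7, 32.5 and 37.5 RPKM and then 2.53, 5.40, 3.34, 2.19 and 9.05 RPKM, and fbxb-107 had 47.4, 43.9 and 33.7 RPKM and then 8.22, 5.83, 7.23, 4.74 and 1.96 RPKM. All 4 had groups that lay apart. The gains were less firm. fbxa-224 had 18.4, 35.0 and 24.9 RPKM and then 231, 72.2, 80.2, 142 and 33.4 RPKM (1.82 ± 0.58), and fbxb-79 (1.69 ± 0.37), fbxa-202 (1.66 ± 0.56) and fbxb-69 (1.40 ± 0.51) likewise had overlapping groups. Without 15C-G3, 6 F-box genes were higher, and with a pseudocount of 10 RPKM 3 were higher and 22 lower.

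MATH and BATH genes, which serve as adaptors of another class of ubiquitin ligase, had 3 of 85 members higher (3.53%) and 2 lower (2.35%, median 0.06), shares near those of all genes. math-31 (II, 1912450 to 1912841, minus strand) had 56.3, 68.1 and 32.7 RPKM at 15 °C and 239, 326, 315, 372 and 284 RPKM at 23 °C (2.58 ± 0.22, adjusted p = 1.2e-07), and 171 RPKM in 23C-G1. bath-31 (II, 3731973 to 3733181, plus strand) went down, with 659.9, 458 and 473 RPKM and then 145, 149, 198, 134 and 232 RPKM (−1.63 ± 0.20, adjusted p = 1.2e-05). math-9 (1.34 ± 0.43) and bath-39 (1.31 ± 0.40) rose and bath-9 (−1.18 ± 0.31) fell at lower levels. The counts were 1 higher without 15C-G3, 5 higher without 23C-G6 and 4 lower without 15C-G2. The sources used here do not give how reads matching several genes were treated, and members of such families may share siRNAs.

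Nuclear hormone receptors, transcription factors that form one of the largest families of the worm, had 8 of 281 members higher (2.85%) and 17 lower (6.05%). Over all genes the shares were 3.94 and 2.64%. Among the 55 with at least 5 reads, 7 were higher (12.7%, against 7.37% of all genes of this level) and 15 lower (27.3%, against 4.92%), with a median of −0.33. nhr-146 (IV, 1626805 to 1630756, plus strand) had the most siRNA of those that passed, with 519, 282 and 295 RPKM at 15 °C and 62.8, 64.7, 112, 54.3 and 77.5 RPKM at 23 °C (−2.27 ± 0.27, adjusted p = 7e-06). nhr-150 (−2.68 ± 0.47), nhr-81 (−2.31 ± 0.52) and nhr-149 (−2.07 ± 0.31) fell as well. nhr-48 (X, 15708213 to 15716875, plus strand) rose, with 17.8, 30.2 and 21.7 RPKM and then 99.0, 85.4, 71.0, 98.7 and 87.0 RPKM (1.90 ± 0.21, adjusted p = 3.5e-06). nhr-65 (2.32 ± 0.46), nhr-244 (2.31 ± 0.37) and nhr-74 (2.21 ± 0.33) rose from levels of a few reads. In all 8 of these genes the groups lay apart. With a pseudocount of 10 RPKM, 5 receptors were higher and 9 lower.

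C-type lectins, secreted or membrane proteins with sugar-binding domains, had 6 of 258 members higher (2.33%, against 3.94% of all genes) and 7 lower (2.71%, against 2.64%), with a median of 0.10. clec-238 (V, 16951804 to 16953629, plus strand) had 842, 551 and 605 RPKM at 15 °C and 132, 138, 253, 129 and 171 RPKM at 23 °C (−2.04 ± 0.36, adjusted p = 0.00058). clec-166 (−3.10 ± 0.36), clec-171 (−1.75 ± 0.33) and clec-143 (−1.28 ± 0.30) fell too. clec-12 (I, 12476653 to 12478594, minus strand) rose, with 23.6, 32.0 and 27.9 RPKM and then 89.0, 74.5, 92.3, 102 and 98.6 RPKM (1.68 ± 0.26), and clec-125 (2.38 ± 0.37) and clec-157 (1.54 ± 0.45) rose from lower levels. clec-169 had 1.38, 1.88 and 1.45 RPKM, 1 read in each 15C library, and then 12.3, 9.38, 16.3, 18.3 and 11.3 RPKM (2.47 ± 0.23). Its fold change depends on the read floor. With the floor taken off, 5 lectins were higher and 13 lower.

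Cuticle collagens, the structural proteins of the exoskeleton that the epidermis secretes at each moult, had gains alone among those that passed. Of 176 tested, 15 were higher (8.52%, against 3.94% of all genes) and 0 lower. Of the 18 with at least 5 reads 10 were higher (55.6%, against 7.37% of all genes of this level), with a median of 1.05. That filter includes the 23C libraries, and col-162 passed it with means of 2.34 reads at 15 °C and 26.5 reads at 23 °C in WT. Beside col-162, col-161 (V, 13317029 to 13318011, minus strand) had 2.24, 6.09 and 2.34 RPKM at 15 °C and 27.1, 30.8, 29.1, 38.8 and 40.1 RPKM at 23 °C (2.99 ± 0.28). col-45 (I, 115687 to 117498, plus strand) had 39.0, 54.3 and 46.8 RPKM and then 253, 246, 285, 287 and 255 RPKM (2.49 ± 0.17, adjusted p = 5.4e-09), and 168 RPKM in 23C-G1. col-104 came to 2.00 ± 0.38, from the read floor in every 15C library. With 1 library left out, 13 to 17 collagens were higher and 0 lower, 8 were higher with a pseudocount of 10 RPKM, and 19 were higher and 1 lower with the read floor taken off. Of 53 hedgehog-related genes, which encode secreted proteins of the epidermis and other tissues, 3 were higher (5.66%, against 3.94% of all genes) and 0 lower. grl-27 (V, 3575055 to 3575859, minus strand) had 40.9, 83.4 and 49.8 RPKM and then 312, 262, 377, 409.6 and 294 RPKM (2.54 ± 0.37, adjusted p = 6.7e-05), and grd-15 (1.79 ± 0.40) and grl-31 (1.30 ± 0.40) rose at lower levels. The call of grl-31 was lost without 15C-G1 (0.74) or 23C-G5 (1.11).

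Genes that mark other somatic tissues were mostly near the floor. Of 24 intestinal genes, 15 epidermal genes, 6 yolk protein genes and 7 fatty acid desaturase genes, 0 passed in either direction, with medians of 0.08, 0.10, 0.26 and −0.04. Over all genes 3.94% were higher and 2.64% lower. Of 20 muscle genes 1 was lower (5.00%). It was unc-54, the main myosin heavy chain of the body wall, named here after its value was seen, with 10.2, 12.5 and 8.83 RPKM at 15 °C and 1.48, 1.32, 1.22, 0.640 and 0.270 RPKM at 23 °C (−2.57 ± 0.37). Its groups lay apart, and with a pseudocount of 10 RPKM it was not called. siRNAs over such genes mark targets and not cells, and in whole animals fewer cells of a type and less RNA per cell cannot be told apart.

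Most neuronal genes were not called, and those that were went either way. Of 36 tested, 3 were higher and 3 lower (8.33% each, against 3.94 and 2.64% of all genes), with a median of 0.09. Beside egl-21, rimb-1, for a RIM-binding protein of the presynaptic active zone (III, 1788333 to 1807147, plus strand), rose from 40.0, 34.1 and 32.7 RPKM at 15 °C to 189, 189, 194, 218 and 165 RPKM at 23 °C (2.39 ± 0.22, adjusted p = 3.8e-07). The third gain, named after its value was seen, was unc-31, for a protein that primes dense core vesicles for release, with 0.930, 2.53 and 2.91 RPKM and then 5.91, 5.66, 8.97, 3.58 and 8.92 RPKM (1.29 ± 0.31). Beside unc-17, ric-4, for the synaptic fusion protein SNAP-25 (V, 10261131 to 10270314, minus strand), had 128, 49.6 and 57.2 RPKM and then 7.74, 12.4, 5.11, 3.35 and 5.53 RPKM (−3.32 ± 0.52, adjusted p = 0.00015). ida-1, for a receptor-like phosphatase of dense core vesicles, came to −1.17 ± 0.31. The groups of all 6 genes lay apart.

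Histone and ribosomal protein genes, expressed in all dividing or growing cells, changed at few members. Of 70 histone genes 2 were higher and 2 lower (2.86% each, against 3.94 and 2.64% of all genes, median 0.17). his-41 had 8.83, 14.3 and 13.5 RPKM at 15 °C and 38.2, 43.3, 38.5, 39.4 and 41.0 RPKM at 23 °C (1.66 ± 0.17, adjusted p = 1.4e-06), and his-61 came to 1.21 ± 0.29. his-38 (X, 7309564 to 7309875, minus strand) fell, with 183, 175 and 158 RPKM and then 41.1, 59.9, 38.4, 48.7 and 50.7 RPKM (−1.84 ± 0.19, adjusted p = 9.8e-07), and his-1 came to −1.06 ± 0.27. Histone genes of a class are near-identical in sequence, so that values of single members are uncertain. The call of his-1 was lost without 15C-G1 (−0.83), 23C-G5 (−0.93) or 23C-G6 (−0.98), and without 15C-G3 the number of higher histone genes was 4. With the read floor taken off, 4 were higher and 4 lower. Of 81 ribosomal protein genes 3 were higher (3.70%) and 0 lower (median 0.02). rpl-42 had 11.5, 41.7 and 32.0 RPKM and then 224, 98.7, 70.8, 135 and 59.3 RPKM (2.02 ± 0.44), rpl-11.2 came to 2.10 ± 0.35 and rpl-31 to 1.14 ± 0.22.

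**Figure D3:**
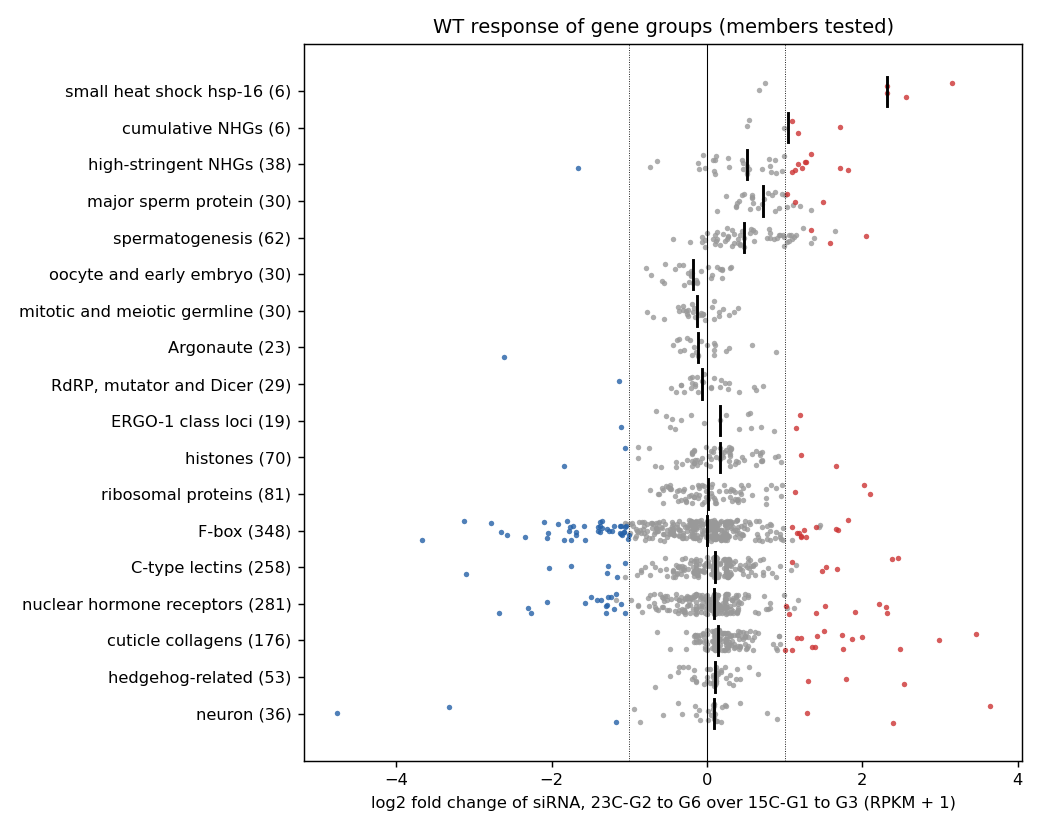
log2 fold change of siRNA at 23 °C over 15 °C in WT for each tested member of 18 gene groups (number tested in brackets), with genes called higher in red, lower in blue and not called in grey. Black bars are group medians and dotted lines mark 2-fold changes. The hsp-16 genes (median 2.31) and the called collagens lie to the right, and 42 F-box genes lie to the left.

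Called genes were placed on the chromosomes. Among genes of at least 5 reads, 88 of 616 on the X chromosome were lower (14.3%), against 3.08 to 5.56% on the 5 autosomes, and 80 were higher (13.0%), against 5.74 to 8.78%. The median log2 fold change on X was −0.02. Over all genes tested, 4.68% of the 2565 genes on X were lower and 3.51% were higher, against 2.34 and 4.04% of the 16691 autosomal genes. With 1 library left out, 102 to 125 genes on X were lower and 84 to 103 higher. sec-16A.2, F48E3.9, meg-4, glit-1 and F41G4.7 are X-linked genes that rose, and F19C6.2, fbxa-179 and his-38 are X-linked genes that fell.

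**Figure D4:**
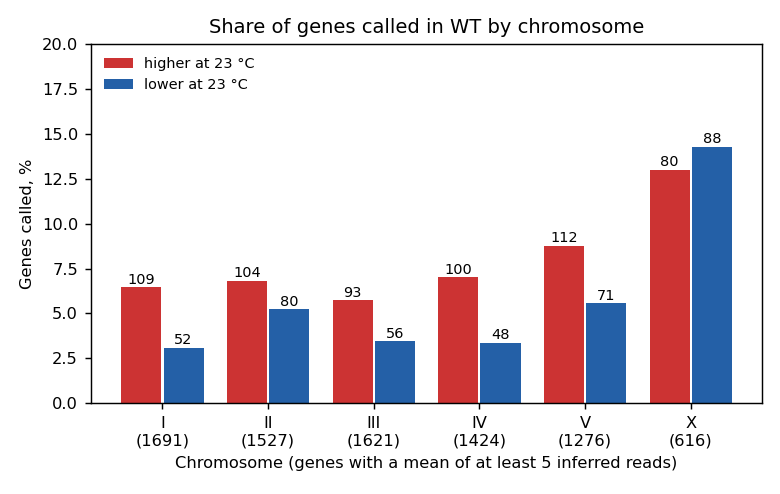
Share of genes called higher (red) and lower (blue) at 23 °C in WT on each chromosome, for genes averaging 5 or more inferred reads, whose number stands under each chromosome. Numbers over the bars count the genes called. On X 13.0% were higher and 14.3% lower.

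Called genes also lay next to each other. Of the 764 higher genes with a known position, 119 (15.6%) had a higher gene as a direct neighbour among the tested genes, as 7.71% of all genes did. Of the 510 lower genes 67 (13.1%) had a lower neighbour, as 5.15% of all genes did. The longest run was of 4 genes, hsp-16.1, hsp-16.48, hsp-16.49 and hsp-16.11, on chromosome V between 9087293 and 9090604. Another on V, from 8686069 to 8696318, held ZC190.7, ZC190.8 and ZC190.10. There ZC190.7 had 10.4, 14.1 and 18.1 RPKM at 15 °C and 110.0, 60.9, 52.3, 57.1 and 25.2 RPKM at 23 °C (1.92 ± 0.32), and ZC190.10 had 4.99, 40.7 and 46.9 RPKM and then 162, 108, 151, 178 and 97.5 RPKM (2.58 ± 0.50). A run of 3 lower genes on X, from 16929914 to 16952026, held C30E1.9, F52G3.3 and F52G3.4. Neighbours can share siRNAs through overlap or repeats, and 9 of the higher genes had exactly the values of another, as W09B7.1 and F07B7.1 did.

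Of the 436 most abundant siRNA targets, those averaging 300 RPKM or more in the 8 libraries, 36 were higher (8.26%) and 21 lower (4.82%). The 23C libraries of all 36 lay above those at 15 °C, and those of 20 of the 21 lay below. Among called genes of any level, 80.7% of the higher and 88.5% of the lower lay apart. Over all genes tested, 6.34% lay apart in the higher and 5.36% in the lower direction. The median absolute change was 1.18 and 1.43 on the log2 scale, and examples were chosen after their values were seen. puf-4, for an RNA-binding protein of the Pumilio family (IV, 3204559 to 3210582, minus strand), had 219, 133 and 188 RPKM at 15 °C and 769, 873, 1018, 819 and 938 RPKM at 23 °C (2.31 ± 0.21, adjusted p = 3.1e-07). glb-14, for a globin (V, 15543106 to 15544994, minus strand), had 325, 255 and 228 RPKM and then 1021, 1052, 1108, 942 and 877 RPKM (1.90 ± 0.19). iff-2, for the translation factor eIF5A (II, 8559375 to 8561367, minus strand), had 393, 333 and 329.8 RPKM and then 878, 949, 876, 989 and 849 RPKM (1.37 ± 0.15). F20B6.5 came to 2.48 ± 0.36, col-111 to 1.75 ± 0.21 and Y54G2A.19 to 1.54 ± 0.21. osm-3, for the homodimeric kinesin-2 of intraflagellar transport in cilia (IV, 3796300 to 3801052, minus strand), had 369, 243 and 226 RPKM and then 527, 540.3, 643, 661 and 622 RPKM (1.13 ± 0.15, adjusted p = 2.2e-05). klp-11, for a subunit of the heterotrimeric kinesin-2 (IV, 8756735 to 8762066, minus strand), had 459, 327 and 407 RPKM and then 68.6, 63.9, 67.9, 62.6 and 79.0 RPKM (−2.51 ± 0.16, adjusted p = 3.9e-09). klp-11 itself averaged under 300 RPKM in the 8 libraries, and klp-20, for the partner subunit of KLP-11, came to 0.99 and was not called. nlp-62, for a neuropeptide-like protein (I, 5854199 to 5855040, minus strand), had 1073, 907 and 864 RPKM and then 201, 115, 163, 73.4 and 71.7 RPKM (−3.03 ± 0.31, adjusted p = 9.8e-07), with 23C-G1 between the groups at 438 RPKM.

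The WT response was set beside that of the hrde-1 mutant, whose 15C-G1 to G3 and 23C-G2 to G6 libraries (n = 3 and 5) are separate from those of WT. At 15 °C the mean siRNA over hrde-1 itself was 299.9 RPKM for WT against 153 RPKM for the mutant, and at 23 °C it was 278 RPKM against 146 RPKM. In the mutant, 736 genes were higher at 23 °C (3.71%) and 535 lower (2.7%). Of the genes higher in WT, 275 were also higher in the mutant, which is 35.2% of the WT genes and 37.4% of the mutant's, and 18 were lower there. Of the genes lower in WT, 214 were also lower in the mutant (40.8% and 40.0%), and 6 were higher. The difference between the responses was tested as an interaction in the same fit. The WT response exceeded that of the mutant at 279 genes (1.41%) and fell below it at 220 (1.11%), or 260 and 120 with the read floor taken off. Of the 782 genes higher in WT, 143 rose more than in the mutant and 13 less, and 626 did not differ by this test. Of the 524 genes lower in WT, 65 fell more and 3 less, and 456 did not differ by this test. The same WT libraries chose these genes and entered the interaction, which favours a larger response in WT among them. Their split is therefore no measure of which genotype responded more.

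The leading genes fell on both sides of that test. Y76B12C.4 went from 3.23 to 273 RPKM in the mutant (5.81, interaction adjusted p = 0.74), and eri-12 from 258 to 9.46 RPKM (−4.64, 0.9). Both moved in the mutant as in WT. sec-16A.2 went from 7.84 to 9.26 RPKM in the mutant (0.13), and the responses differed by 3.46 on the log2 scale (adjusted p = 6.4e-05 in limma). T05C3.6 went from 42.6 to 22.6 RPKM there, a difference of 4.58 between the responses (adjusted p = 0.0001). ttn-1 had 0.463 RPKM in the mutant already at 15 °C and 0.200 RPKM at 23 °C (difference −4.28, adjusted p = 3.6e-06). fbxa-60 fell in WT but rose from 66.6 to 257 RPKM in the mutant (difference −4.51, adjusted p = 1e-05). fbxa-61 fell in both (−4.16 in the mutant, interaction adjusted p = 0.59).

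The gene groups were compared in the same way. Over all genes tested, 3.71% were higher and 2.7% lower in the mutant. The interaction test was passed by 1.41% with a positive and 1.11% with a negative difference. The 6 hsp-16 genes were all higher in the mutant (median 3.11), and 0 of them passed the interaction test. Of the 176 collagens, 14 were higher and 0 lower in the mutant, against 15 and 0 in WT, and 2 passed the interaction test. The cumulative NHGs, 3 of which rose in WT, had 0 higher and 1 lower in the mutant (median −0.62), and 4 of the 6 passed the interaction test, all with the larger response in WT. F41G4.7 went from 232 to 109 RPKM in the mutant (difference 2.48, adjusted p = 0.0022), and C18D4.6 from 109.7 to 74.4 RPKM (2.33, 0.0003). Of the 38 high-stringent NHGs 13 had a larger response in WT and 2 a smaller one. C44B12.6 fell from 468 to 119 RPKM in the mutant (difference 3.40), ZK262.9 fell from 125 to 43.5 RPKM (2.90), and glit-1 rose from 7.32 to 104 RPKM (−1.81). For the 30 major sperm protein genes the mutant had a median of −0.57 with 0 higher and 1 lower, and 2 passed the interaction test. F-box genes had 20 higher and 23 lower members in the mutant, and 5 passed the interaction test with a positive and 20 with a negative difference.

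**Figure D5:**
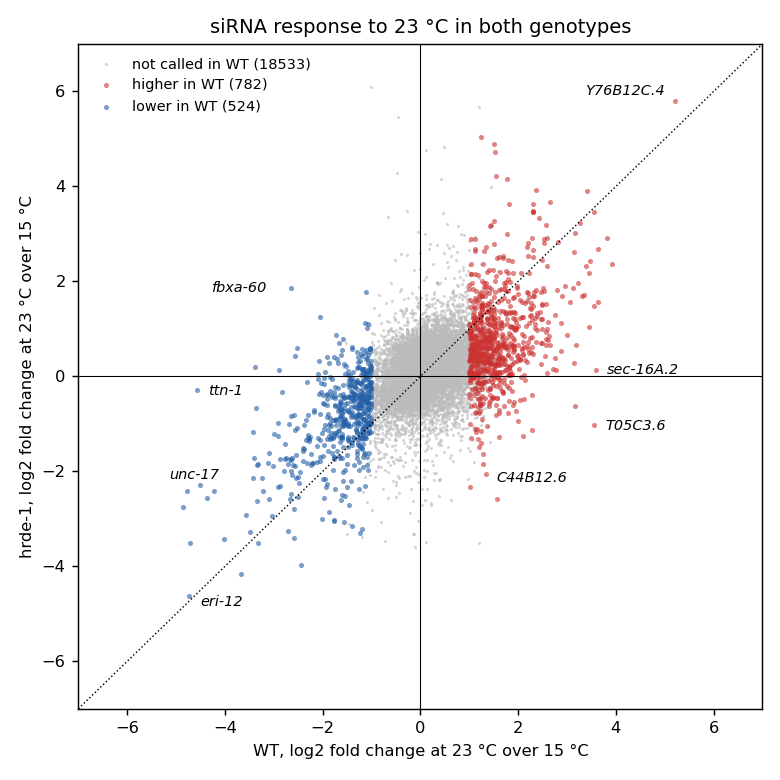
log2 fold change of siRNA at 23 °C over 15 °C in WT (x axis) and in the hrde-1 mutant (y axis) for each gene tested, with genes called higher in WT in red and lower in blue. The dotted line marks equal responses. Y76B12C.4 and eri-12 lie close to it, sec-16A.2 and ttn-1 lie near 0 on the mutant's axis, and fbxa-60 is lower in WT and higher in the mutant.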

How the data were processed

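Small RNA libraries were made by the authors from RNA treated with phosphatase and polynucleotide kinase, so that siRNAs were cloned whatever their 5′ phosphates. The deposited table gives RPKM for 20911 transcripts in 24 libraries. The authors aligned reads to mRNAs of release WS190 with Bowtie (0.12.7) and counted perfect antisense matches over exon length and total reads. The sources used here do not give how reads with several matches were treated. No other column of the table was used.

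Values were taken as log2(RPKM + 1), with 1 transcript per gene where the mean of the 24 libraries reached 1 RPKM. limma 3.58.1 (R 4.3.3) fitted 8 means, 1 for each genotype and phase with 23C-G1 kept apart, with a variance trend, to 24 libraries. Genes were called at 2-fold or more with a p of at most 0.1 after Benjamini-Hochberg adjustment. The fit was tested on simulated data. Reads were inferred from the smallest step of RPKM and annotated lengths. Positions are of WBcel235. Tables and plots used python 3.11.15, numpy 2.4.6, pandas 2.3.3 and matplotlib 3.10.9.

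The text names the 12 called genes per direction with the largest change, 10 RPKM or more on average in the 8 libraries and no overlap. It also names hrde-1, hsp-16.48, fat-7, the 6 cumulative NHGs, and per gene list up to 4 called members per direction averaging 5 RPKM or more. Others were named after their values were seen. The comparison, members and lists were chosen with earlier results of these data known. Alternatives were other pseudocounts, filters, scaling, sets of libraries and variance models, the read floor taken off and each library left out.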

Additional observations from a re-analysis of the deposited data

Results flagged for a closer look

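Of the 95 genes named by rule, 2 had 1 library far from the other 4 of 23C-G2 to G6 by Dixon's test. Chance gives such a library in about 1 in 20 groups. spe-10 was at 14.5 RPKM in 23C-G2, and meg-4 was at 112 RPKM in 23C-G5.

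The response of 30 named genes differed between WT and the hrde-1 mutant by the interaction in limma (adjusted p of at most 0.1 and a difference of at least 2-fold). Differences are the WT minus the mutant log2 fold change. Other than the cumulative NHGs, these genes were named for a call in WT on the same libraries, which favours a larger response in WT. Among the 24 leading genes they were T05C3.6 (4.58), sec-16A.2 (3.46), col-162 (2.41), egl-21 (2.07), tag-196 (−2.10), unc-17 (−2.35) and ttn-1 (−4.28). Among NHGs they were C44B12.6 (3.40), ZK262.9 (2.90), F41G4.7 (2.48), C18D4.6 (2.33), ZC15.3 (1.63), F58H7.5 (1.35), glit-1 (−1.81) and Y68A4A.13 (−2.37). In sperm, histone and ribosomal genes they were spe-6 (2.07), msp-3 (1.89), msp-32 (1.66), his-41 (1.33) and rpl-11.2 (1.65). In the large families they were clec-157 (2.34), clec-169 (2.21), nhr-244 (1.83), math-31 (1.79), nhr-74 (1.72), nhr-48 (1.10), clec-238 (−1.70) and fbxa-60 (−4.51). The last were col-161 (2.12) and rimb-1 (1.05).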

How the results depend on the processing

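A pseudocount of 10 RPKM left 358 higher and 265 lower genes. With 1 library left out, 646 (without 15C-G3) to 952 genes (without 23C-G6) were higher and 427 (without 15C-G1) to 524 lower. Under the other settings 681 to 861 were higher and 370 to 650 lower. The interaction gave 279 positive and 220 negative calls, but 260 and 120 with the read floor taken off and 237 and 241 with median-ratio scaling. Of 1782 values of named genes under the alternatives, 1693 kept the direction and side of the threshold, 84 lost the call, 5 gained it and 0 reversed. Of the 90 called genes named by rule, 22 lost the call somewhere, 0 of them among the 24 leading genes. The cause of these changes was not tested. In the 8 libraries 39.9 to 46.6% of transcripts sat at the value of 1 read, below which no level could be measured. Between the temperatures no block was possible, since generation numbers do not pair them. For the WT and hrde-1 responses, a replicate block of the shared generation, added after seeing the data, gave 384 positive and 295 negative interaction calls (679 in all), with 262 and 203 of those without it among them and 29 of the 30 named ones kept. Libraries of the same generation deviated together by r = 0.03 to 0.43 across genes, above 0.1 in 5 of 11 pairs, and 6 of the 11 WT libraries correlated best with their own generation, a hint from the data and not from the design.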

Other observations

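Beyond the groups above, genes of several families passed the test. They were chosen after their values were seen, out of 230 name families of at least 8 genes, and no family was tested. Over all genes tested, 3.94% were higher and 2.64% lower. Of 33 globin genes 4 were higher (12.1%) and 0 lower. glb-18 went from 39.4 ± 13.9 RPKM at 15 °C (n = 3) to 132 ± 29.9 RPKM at 23 °C (n = 5; 1.74 ± 0.22). Of 44 glutathione S-transferase genes 4 were higher (9.09%) and 1 lower (2.27%). gst-24 (1.75), gst-15 (2.21) and gst-12 (1.23) lie on chromosome II between 13610443 and 13618061. The groups of gst-15 overlapped. Of 9 Pumilio genes 2 were higher (22.2%), and puf-9 went from 24.2 ± 2.05 to 145 ± 9.62 RPKM (2.54 ± 0.27).

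Of 24 daf genes, many of which act in the choice to form dauer larvae, 1 was higher (4.17%) and 4 were lower (16.7%). daf-3, for a SMAD transcription factor, had 58.3, 33.7 and 41.9 RPKM at 15 °C and 6.49, 6.92, 11.0, 6.42 and 13.9 RPKM at 23 °C (−2.22 ± 0.31), and daf-7, for a TGF-β ligand, came to −1.46 ± 0.42. The groups of daf-7 overlapped, with 84.25 RPKM in 23C-G2 against 65.51 to 85.55 RPKM at 15 °C. In 23C-G1 daf-7 stood at 116 RPKM, above every 15C library. Of 69 neuropeptide-like genes 1 was higher (1.45%) and 4 were lower (5.80%). unc-68, for the ryanodine receptor that releases calcium in muscle, had 26.0, 20.1 and 22.5 RPKM and then 2.92, 2.19, 2.29, 2.05 and 1.81 RPKM (−2.88 ± 0.25, adjusted p = 1.4e-07 in limma). Chemoreceptor families had few calls, with 0 higher and 4 lower (2.07%) of 193 str genes and 1 higher (0.448%) and 2 lower (0.897%) of 223 srh genes.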
